A study of Mus musculus with 6 samples.

Results

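The transcripts described here encode the machinery that brings proteins into mitochondria. They were chosen by name: gene symbols of the Tomm, Timm, Pmpc, Samm and Grpel families, Timmdc1, and the genes Hspa9, Dnajc19, Pam16, Chchd4 and Gfer. This gave 36 of the 24411 genes in the files. The name also takes in Tomm6os, an RNA antisense to Tomm6, and Timmdc1, an assembly factor of respiratory complex I. All 36 passed the filter on low counts.

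Whole testes of age-matched C57BL/6 mice, a standard inbred strain, were profiled by RNA sequencing. Of 6 libraries, 3 came from animals labelled MRP5-/- and MRP9-/-, that is, lacking both transporters (labelled DKO here), and the other 3 are from Wildtype animals (labelled WT). The named proteins are membrane transporters of the ABCC family, encoded by Abcc5 and Abcc12. The ages and the design of the alleles are not stated in the labels, and that the libraries are separate animals rests on the labels.

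Most mitochondrial proteins are made in the cytosol and must cross 1 or both mitochondrial membranes. The TOM complex is the gate of the outer membrane, and from there proteins are sorted to the TIM23 channel and its motor, to the TIM22 channel for carrier proteins, to the SAM complex for outer membrane barrels, or to the MIA disulfide relay of the intermembrane space. In the testis, mitochondria of developing spermatids are later packed into the sheath of the sperm midpiece, and some import subunits have a second gene.

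The libraries labelled DKO held 42673615 to 67131103 expected counts and those labelled WT 26753721 to 31745969. The mean fragment length was 275 to 317 bases in libraries labelled DKO and 230 to 258 in those labelled WT, so that neither depth nor fragment length overlapped. Abcc12 had 72.6 to 82.4 CPM (counts scaled to the size of the library) in libraries labelled DKO and 158 to 165 in those labelled WT (log2 fold change -1.02; edgeR adjusted p = 0.000307). Abcc5 was instead higher under the DKO label, at 16.7 to 17.0 CPM against 10.5 to 12.3 (log2 fold change 0.56; edgeR adjusted p = 0.0225), which goes against the label for this gene, so groups are named by their labels. Abcc5 was called in 8 of 11 alternative fits that kept all libraries and in 3 of 6 that left out 1 library. Abcc12 was called in 11 and 6 of these. The log2 fold change of Abcc5 ran from 0.27 to 0.64 over the 11 fits. A count over a whole gene cannot show whether an exon is missing. Marker lists of the testis cell types were also counted, against a background of 10.8% of all tested genes called, 5.1% lower and 5.75% higher. Of 15 Sertoli markers 5 were called lower (summed level 1705 to 1978 CPM in libraries labelled DKO, 1882 to 2177 in those labelled WT), of 15 Leydig markers 3 lower (663 to 893 against 869 to 1522), and of 10 peritubular myoid markers 2 lower (403 to 443 against 483 to 515). Of 15 spermatocyte markers 3 were called higher (4631 to 4970 against 4315 to 4560), and of 15 elongating spermatid markers 1 was called higher and 2 lower (30319 to 35167 against 31333 to 35074). Of 62 tested markers in 7 other lists (spermatogonia, round spermatid, endothelial, macrophage, erythrocyte, epididymal, adipocyte) edgeR called 0, with 13 at an unadjusted p under 0.05, and DESeq2 called 2. The erythrocyte genes Hba-a2 and Hbb-bs and the epididymal genes Lcn5, Lcn8 and Spag11a were at 0 in every library, but other genes of these lists were detected. The 3 erythrocyte markers tested summed to 22.1 to 26.5 CPM in libraries labelled DKO and 21.9 to 24.2 in those labelled WT (median log2 fold change 1.34). The 2 epididymal markers tested summed to 6.01 to 6.68 CPM against 4.86 to 6.37. Whether these differences in markers have a part in the results on import genes was not tested.

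The promoters of the members are described first, because they show something that the choice by name did not use. RefSeq promoters on GRCm38.p6, from 250 bases before to 50 after each annotated start, were available for 31 of the 36 members. The letters CCGGAAGT, which match the core bound by ETS factors such as GABP, a regulator of nuclear genes for mitochondrial proteins, stood on either strand in 7 of these 31 (22.6%). Among tested genes with such a promoter 950 of 12876 held them (7.38%). The 7 genes are shown by 30 bases of the strand of the gene around each match, with the matching letters (or their reverse complement) in capitals; Timm8a2 and Timmdc1 held them at 2 places each.
Timm10: tagacttccttCCGGAAGTgacccacgtgc
Timm10b: gagtagtgagagtttACTTCCGGggcgact
Timm23: tcgcgcttcccACTTCCGGgccgcacacag
Timm8a2: gcagccatgacACTTCCGGttctcgttctc
Timm8a2: gtgggtggggcACTTCCGGtccctggctcg
Timmdc1: gccgccaactcACTTCCGGggctcgactga
Timmdc1: tccgagagcttCCGGAAGTgagccggctgg
Pmpcb: ggagtcatgacCCGGAAGTacatctccact
Tomm70a: gccttctgaccCCGGAAGTggttctcccct
These stretches lie at chr2:84827026-84827055 (Timm10, + strand), chr7:105640465-105640494 (Timm10b, +), chr14:32201921-32201950 (Timm23, -), chr14:122034608-122034637 and chr14:122034652-122034681 (Timm8a2, +), chr16:38522790-38522819 and chr16:38522653-38522682 (Timmdc1, -), chr5:21737133-21737162 (Pmpcb, +) and chr16:57121623-57121652 (Tomm70a, +). In Timm10 and Timm10b the match begins at bases 17 and 36, with the annotated start counted as the first base. In the other 5 genes it lies before the start of the promoter used. For Timm8a2 and Timmdc1 that start lies within the gene. Timm8a2 spans chr14:122027677-122038422, so its 2 matches lie inside it. Timmdc1 spans chr16:38497843-38522778, so its match at chr16:38522653-38522682 lies inside it. The other motifs searched, on both strands, were those of NRF1 (0 of 31 members, 1.92% of tested genes), YY1 (1 of 31, 1.43%) and SP factors (4 of 31, 14.1%), and the letters TGACGTCA (CRE; 0 of 31, 3.23%), CCAAT (10 of 31, 42.4%) and TATAAA (3 of 31, 9.62%). A match is a description of these letters, not a binding site.

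Across the whole machinery, transcript levels differed little between the labels. At an adjusted p under 0.05, 4 of 36 members were called (11.1%), against a background of 10.8% of all 17110 tested genes, so the share is near the background. All 4 were lower in libraries labelled DKO (5.1% of all genes were called lower) and 0 were higher (background 5.75%). The test was the edgeR quasi-likelihood test, with p-values adjusted over all tested genes by the Benjamini-Hochberg method. At an unadjusted p under 0.05, 12 members differed, 6 lower and 6 higher, 33.3% of members and 31.7% of all genes. Groups without overlap in CPM were found for 13 members (36.1%; all genes 35.9%), of which 6 were lower and 7 higher. The median log2 fold change, libraries labelled DKO over labelled WT, was -0.016 for the members and -0.0042 for all tested genes. DESeq2 called 6 members (16.7%; background 13.7%), 5 lower (background 5.86%) and 1 higher (background 7.85%). These DESeq2 backgrounds are over 21125 genes, without the low-count filter used for edgeR, and are not comparable with those over 17110 genes. DESeq2 ran with its own default filter on mean counts. Any gene it left without an adjusted p stays among the 21125 as not called. With length and GC trends of each library removed edgeR called 4 (background 3.42%), Timm10b, Timm13 and Tomm7 lower (background 1.77%) and Pam16 higher (background 1.65%). The extreme differences were -0.73 and 0.25 on this scale. In bulk tissue, fewer cells of a type and less RNA per cell cannot be told apart. The p-values measure the spread between these 6 libraries.

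**Figure D1:**
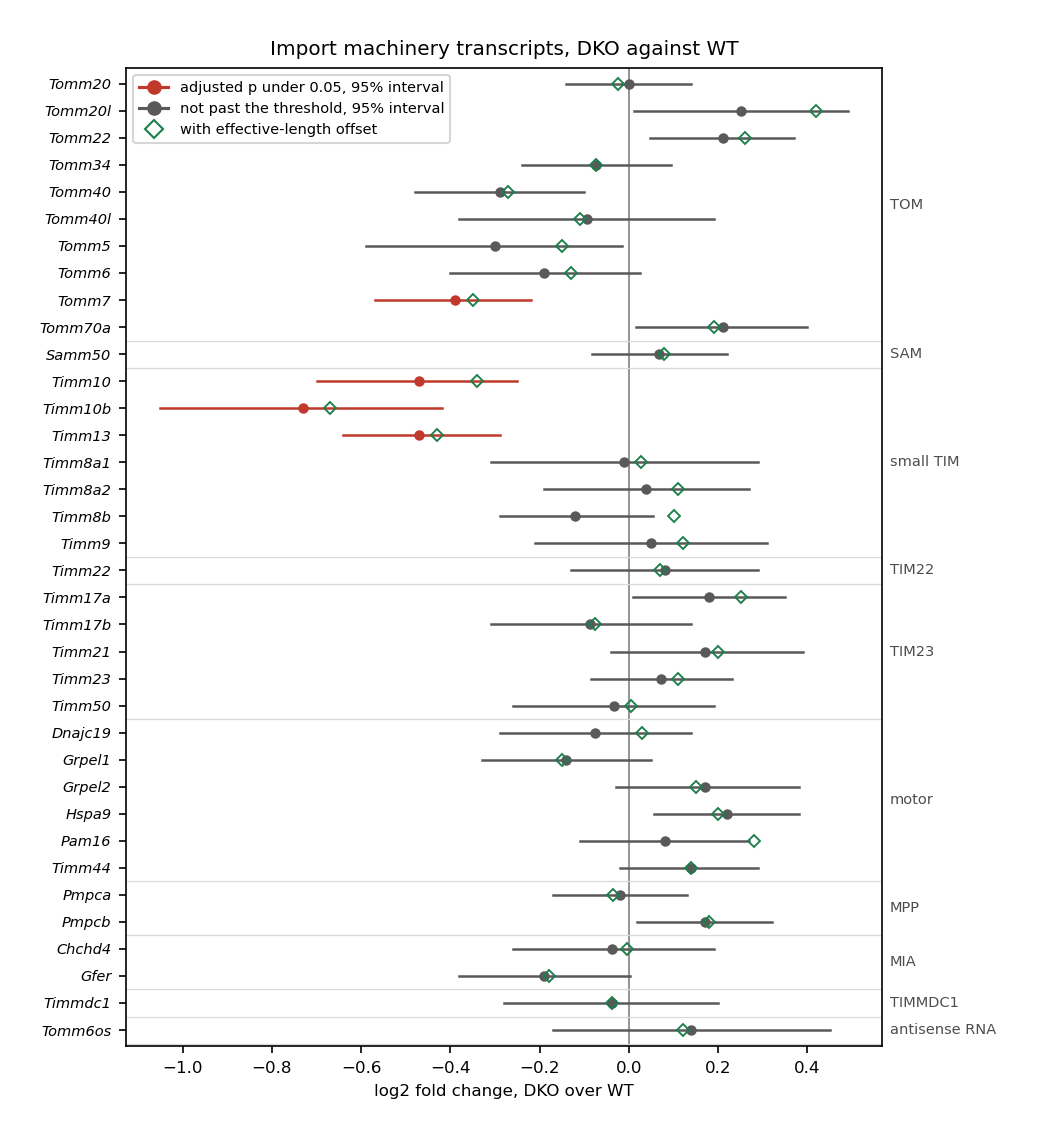
Log2 fold change (x axis, libraries labelled DKO over labelled WT) of the 36 members, grouped by complex, with its 95% interval from the edgeR fit; diamonds give the value with an offset for effective length. The intervals of Timm10, Timm10b, Timm13 and Tomm7 lie below 0 and are drawn in red as past an adjusted p of 0.05.

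The 4 transcripts that fell were Timm10, Timm10b and Timm13, from the small TIM family, and Tomm7, a small subunit of the TOM complex. The small TIM proteins are chaperones of the intermembrane space that escort hydrophobic proteins from TOM to the inner or outer membrane. Of 7 members of this family 3 fell (background 5.1% of all tested genes) and 4 did not pass the test. None of the values of these 4 transcripts overlapped between the groups.

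Timm10 encodes the partner of Timm9 in a chaperone ring for carrier proteins. Its gene lies at chr2:84827021-84830213 (RefSeq, GRCm38.p6), and none of its exons in GENCODE M21 overlaps another gene. Timm10 had 8.07, 8.29 and 9.56 CPM in libraries labelled DKO and 11.2, 12.9 and 11.9 CPM in those labelled WT. Every library labelled DKO was below every library labelled WT. The means were 8.64 ± 0.804 and 12 ± 0.82 CPM (SD, n = 3 each). The log2 fold change was -0.47, with SE 0.103 and an edgeR adjusted p of 0.0288.

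Timm10b encodes a small TIM protein that is held at the TIM22 channel. The gene lies at chr7:105640445-105655748. It had 4.97, 7.45 and 5.57 CPM in libraries labelled DKO and 9.87, 10.7 and 9.21 CPM in those labelled WT. This was the largest difference among the members, and the highest DKO-labelled library was still below the lowest labelled WT. The means were 6.0 ± 1.29 and 9.94 ± 0.77 CPM (SD, n = 3 each). The log2 fold change was -0.73, with SE 0.144 and an edgeR adjusted p of 0.0255. Its exons share 376 bases with Gm45799 on the same strand and 277 with Arfip2 on the opposite strand. Strand handling is not given in the sources used here, so reads of these genes may not be separable. Arfip2 itself had a log2 fold change of -0.20 (edgeR adjusted p = 0.244).

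Timm13 pairs with the Timm8 proteins in a second chaperone ring, which carries among others the Timm23 precursor. The gene lies at chr10:80899450-80900969, and 43 exonic bases overlap Tmprss9 on the opposite strand. Timm13 had 18.2, 20.7 and 19.4 CPM in libraries labelled DKO and 26.4, 27.6 and 26.4 CPM in those labelled WT. The groups were separate, with narrow spread in each. The means were 19.4 ± 1.26 and 26.8 ± 0.702 CPM (SD, n = 3 each). The log2 fold change was -0.47, with SE 0.0808 and an edgeR adjusted p of 0.0233.

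Tomm7 encodes a small TOM subunit that affects the stability of the complex and also of PINK1 at the outer membrane. The gene lies at chr5:23838944-23844145, with no exonic overlap with another gene. It had 68.5, 79.4 and 81.9 CPM in libraries labelled DKO and 97.3, 102 and 102 CPM in those labelled WT. All libraries labelled DKO were again the lower ones. The means were 76.6 ± 7.12 and 100 ± 2.78 CPM (SD, n = 3 each). The log2 fold change was -0.39, with SE 0.0798 and an edgeR adjusted p of 0.0263.

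**Figure D2:**
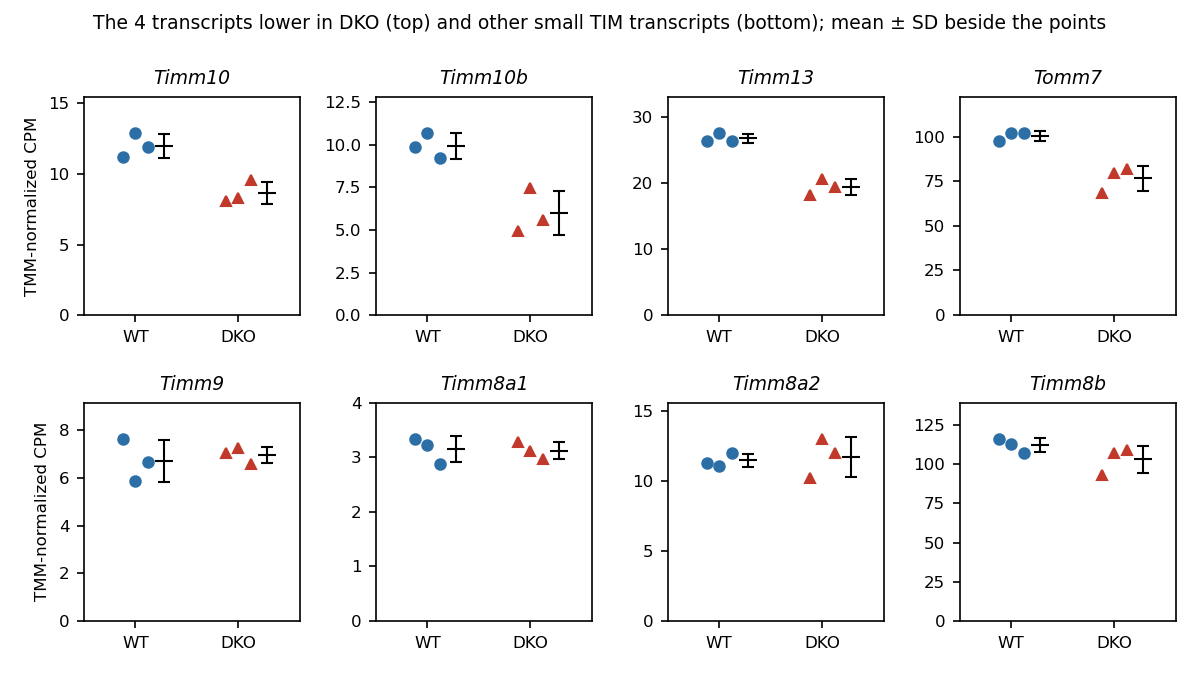
TMM-normalized CPM (y axis) in each library for the 4 transcripts that fell in libraries labelled DKO (upper row) and for the other 4 small TIM transcripts (lower row), with the mean ± SD beside the points. In the upper row the groups are separate; Timm9 had 6.57 to 7.23 CPM in libraries labelled DKO, within the 5.85 to 7.63 CPM of those labelled WT.

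The calls depended on single libraries, as did calls over all genes. Over all tested genes edgeR called 11 without DKO replicate 1, 13 without WT replicate 2 and 7 without WT replicate 3. Those fits tested 17097, 17403 and 17431 genes. Without DKO replicate 1, WT replicate 2 or WT replicate 3, none of these 4 genes passed the threshold (edgeR adjusted p from 0.0706 to 0.122), with log2 fold changes from -0.78 to -0.33, and without DKO replicate 2 Timm10 did not pass it (-0.45; edgeR adjusted p = 0.0679; 0.00981 to 0.122 over the 6 fits that leave out a library). In the fit without DKO replicate 2 the 3 other members were called (background 3.83%), all lower (background 2.83%; higher genes 0.993%). With the mean fragment length as a covariate their log2 fold changes were -0.19 (Timm10), -0.45 (Timm10b), -0.34 (Timm13) and -0.14 (Tomm7), all at an edgeR adjusted p of 0.999; fragment length did not overlap between the labels, and its part cannot be told apart from theirs.

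The ring partners of these chaperones did not pass the test. Timm9 had 7.02, 7.23 and 6.57 CPM in libraries labelled DKO and 7.63, 5.85 and 6.66 CPM in those labelled WT, with groups that overlapped (log2 fold change 0.05, 95% interval -0.21 to 0.31). Timm8b, a partner of Timm13, had 93.2, 107 and 109 CPM against 116, 113 and 107 CPM, and the groups overlapped (log2 fold change -0.12, interval -0.29 to 0.054). Timm8a1, the mouse counterpart of the human deafness-dystonia gene, had a log2 fold change of -0.011 (interval -0.31 to 0.29). Its paralog Timm8a2 had one of 0.039 (interval -0.19 to 0.27). The log2 fold changes of Timm10, Timm10b and Timm13 lie below the lower bounds of Timm9, Timm8a1, Timm8a2 and Timm8b, though the difference between genes was not tested. The direction of Timm8b was not stable, since with an offset for effective length its log2 fold change was 0.10.

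Levels per transcript length, in TPM (transcripts scaled to 1 total per library), place these differences in the family. Timm8b was the most abundant member of the whole machinery, at 611 ± 28 TPM in libraries labelled DKO and 588 ± 21.9 TPM in those labelled WT (SD, n = 3 each). Its partner Timm13 stood at 29.6 ± 1.34 and 41.3 ± 2.49 TPM. The ratio of Timm8b to Timm13, in TPM, was 21.1, 19.5 and 21.2 in libraries labelled DKO and 15.4, 13.5 and 13.9 in those labelled WT, with no overlap. The ratio of Timm10 to Timm9 was 1.88, 1.81 and 2.26 against 2.24, 3.33 and 2.71, which overlapped in 1 library of each group. The ratio of Timm10b to Timm9 was 0.599, 0.871 and 0.714 against 1.09, 1.59 and 1.17, with no overlap. These ratios were chosen after the values were seen and carry no test. Because Timm8b has a transcript of 527 bases, its TPM depends strongly on the fragment length used to scale it.

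**Figure D3:**
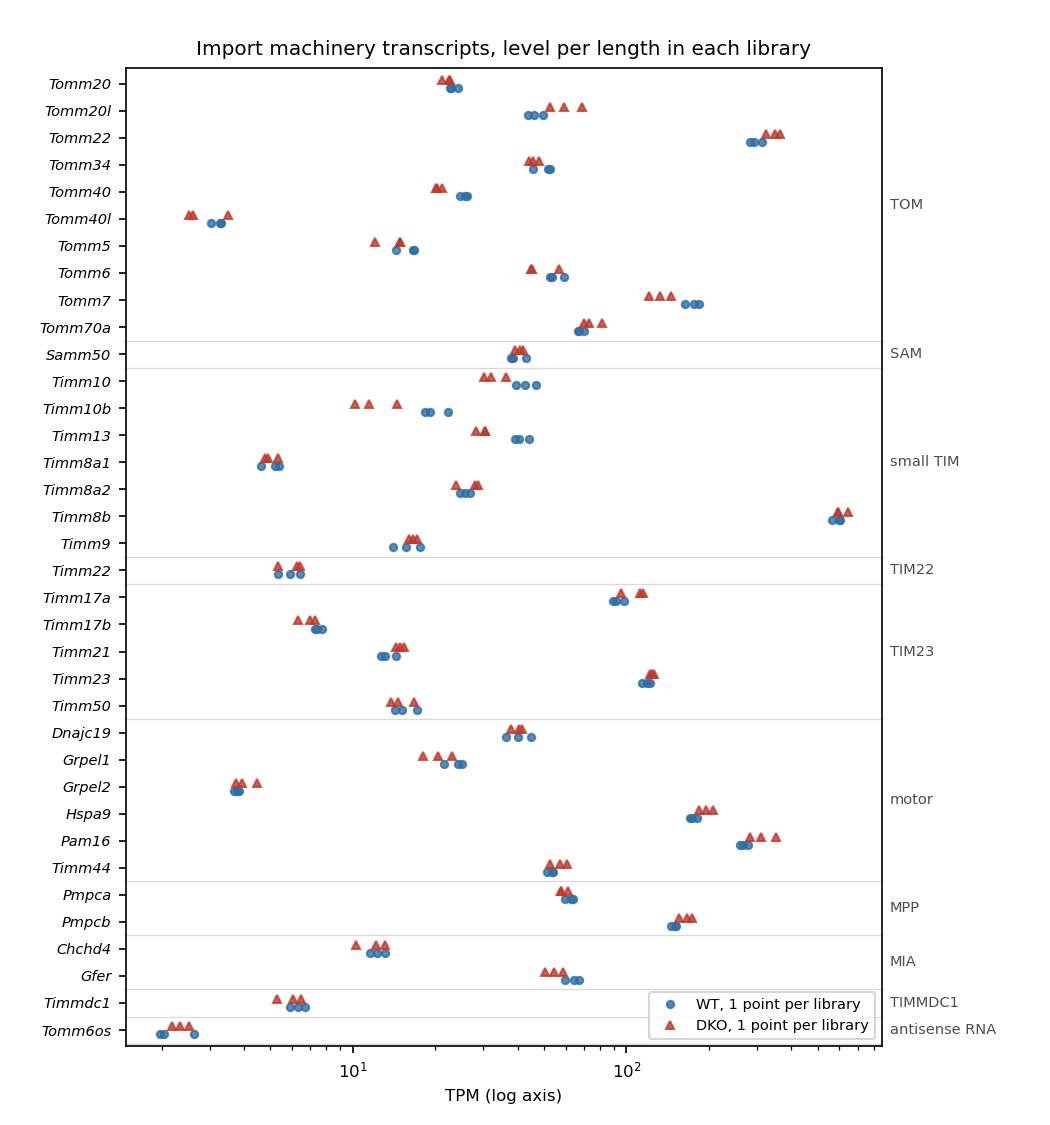
TPM (x axis, log scale) of the 36 members in each of the 6 libraries, grouped by complex; circles are libraries labelled WT and triangles libraries labelled DKO. Levels span from Tomm6os, at a mean of 2.28 TPM, to Timm8b, at 599 TPM.

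Of the 10 TOM members, 1 fell (Tomm7; background 5.1%), 0 rose and 9 did not pass the test. Tomm40, the channel itself, had 18.4, 19.9 and 17.6 CPM in libraries labelled DKO and 24.2, 22.0 and 22.0 CPM in those labelled WT. The groups were separate, but Tomm40 did not pass the threshold (log2 fold change -0.29, SE 0.0858; edgeR adjusted p = 0.0517). It passed under 5 of the 11 alternatives that kept all libraries, with a lowest adjusted p of 0.0304 (DESeq2) and a highest of 0.999 (edgeR with the covariate). Its log2 fold change ran from -0.38 with the covariate to -0.089 with length and GC trends removed (edgeR adjusted p = 0.539). Its exons share 258 bases with Gm20512 on the opposite strand. Tomm5, another small subunit, was also below the range of the WT-labelled libraries, at 3.48, 3.14 and 3.66 against 3.87, 4.36 and 4.46 CPM (log2 fold change -0.30; edgeR adjusted p = 0.138).

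None of the receptors passed the test. Tomm22, the central receptor, had 177, 173 and 183 CPM in libraries labelled DKO and 156, 142 and 163 CPM in those labelled WT. These groups did not overlap, and the log2 fold change was 0.21 (SE 0.074; edgeR adjusted p = 0.0815). Tomm70a, the receptor for carrier proteins, had 201, 186 and 165 CPM against 171, 148 and 159 CPM, with overlap (log2 fold change 0.21; edgeR adjusted p = 0.131). Tomm20, the receptor for presequences, had 75.4, 72.5 and 71.3 CPM against 74.7, 72.4 and 72.0 CPM. Its log2 fold change was 0.00045, with a 95% interval from -0.14 to 0.14. In TPM the ratio of Tomm22 to Tomm40 was 17.3, 15.3 and 18.0 in libraries labelled DKO and 11.2, 11 and 12.7 in those labelled WT, again chosen after the values were seen. The summed TPM of the 10 TOM members was 730 to 810 in libraries labelled DKO and 742 to 775 in those labelled WT, so the sum overlapped where single subunits did not.

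Tomm20l, a paralog of Tomm20, had 12, 12 and 14.8 CPM in libraries labelled DKO and 11.8, 10.7 and 10.2 CPM in those labelled WT. The groups did not overlap, and the gene did not pass the threshold (log2 fold change 0.25, SE 0.11; edgeR adjusted p = 0.142). An offset for effective length brought it past, at 0.42 (edgeR adjusted p = 0.0397; 0.0397 to 0.999 over the 11 alternatives with every library). In TPM, Tomm20l made up 72.3, 71.3 and 75.3% of the summed Tomm20 and Tomm20l level in libraries labelled DKO and 68.5, 65.6 and 65.6% in those labelled WT. Per length, Tomm20l was therefore the larger of the pair in each library. In CPM it was the smaller, at means of 12.9 in libraries labelled DKO and 10.9 in those labelled WT, against 73.0 and 73.0 for Tomm20. The transcript of Tomm20l has 596 bases and that of Tomm20 4986, so the share depends on the fragment length used to scale it. Its exons overlap those of Timm9 by 49 bases on the opposite strand.

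The paralog of the channel was a minor form. Tomm40l made up 10.6 to 14.8% of the summed Tomm40 and Tomm40l TPM in libraries labelled DKO and 10.4 to 11.6% in those labelled WT, and its log2 fold change was -0.094 (interval -0.38 to 0.19). Its exons share 3304 bases with Nr1i3 on the opposite strand. Tomm6 and Tomm6os share 219 exonic bases on opposite strands. Tomm6 also shares 859 with Gm21981 on the same strand, and Tomm6os shares 1221 with Prickle4 and 958 with Gm21981 on the opposite strand. Tomm6 and Tomm6os both carried fractional counts in all 6 libraries. Their log2 fold changes, -0.19 and 0.14, may not be separable from each other or from these other genes. Tomm34, a cytosolic co-chaperone of import, had one of -0.073 (interval -0.24 to 0.094). Samm50, which inserts barrel proteins into the outer membrane, had 39.6, 39.4 and 39.5 CPM in libraries labelled DKO and 37.8, 39.0 and 36.2 CPM in those labelled WT. The groups did not overlap, but the log2 fold change was 0.068 (interval -0.083 to 0.22; edgeR adjusted p = 0.53).

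No member of the inner membrane channels was called by edgeR or DESeq2; at an unadjusted p under 0.05 edgeR passed 1 of the 5 TIM23 members, Timm17a. Timm23, the pore-forming subunit for presequence proteins, had 74.7, 77.4 and 75.2 CPM in libraries labelled DKO and 74.7, 67.1 and 74.6 CPM in those labelled WT. The log2 fold change was 0.071, with an interval from -0.084 to 0.23, so a change of the size of Timm10b lies outside it. Timm17a, its structural partner, had 48.1, 43.4 and 49.5 CPM against 40.8, 39.7 and 44.0 CPM, which overlapped (log2 fold change 0.18; edgeR adjusted p = 0.137). Timm17b, the X-linked paralog of Timm17a, had a log2 fold change of -0.087 (interval -0.31 to 0.14). It made up 5.33 to 6.82% of the summed TPM of the pair in libraries labelled DKO and 7.02 to 7.74% in those labelled WT, without overlap. Timm50, the receptor of the channel, had 8.5, 9.43 and 10.1 CPM in libraries labelled DKO and 9.14, 10.2 and 9.37 CPM in those labelled WT, with overlap (log2 fold change -0.033). Timm21, which links the channel to TOM and to the respiratory chain, had a log2 fold change of 0.17 (interval -0.041 to 0.39). The 5 TIM23 members had a median log2 fold change of 0.071. Timmdc1, of the related fold, had one of -0.039 (interval -0.28 to 0.20). Timm22, the carrier channel, was near the low end of the levels, at 5.98 ± 0.581 and 5.89 ± 0.53 TPM (SD, n = 3 each; log2 fold change 0.081, interval -0.13 to 0.29).

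The import motor pulls chains into the matrix by ATP-driven cycles of the chaperone Hspa9, and none of its 6 members passed the edgeR test, with 1 at an unadjusted p under 0.05; DESeq2 called 1 (Hspa9), and edgeR with length and GC trends removed called another (Pam16). Hspa9 had 402, 368 and 363 CPM in libraries labelled DKO and 328, 309 and 338 CPM in those labelled WT. These groups were separate, with a difference of 0.22 on the log2 scale (SE 0.073; edgeR adjusted p = 0.0706), and DESeq2 called the gene (adjusted p = 0.0377; 0.0377 to 0.999 over the 11 alternatives with every library, with log2 fold changes from 0.041 to 0.23). Timm44, which tethers the motor to the channel, had 63.3, 57.2 and 57.9 CPM against 54.4, 52.3 and 55.4 CPM. It did not overlap either, and its log2 fold change was 0.14 (interval -0.019 to 0.29; edgeR adjusted p = 0.21). The nucleotide exchange factors were on opposite sides of 0: Grpel1 had a log2 fold change of -0.14 (interval -0.33 to 0.05) and Grpel2 one of 0.17 (interval -0.029 to 0.38). Grpel1 shares 411 exonic bases with Tada2b and carried fractional counts. In TPM, Grpel2 made up 15.5 to 17.9% of the pair in libraries labelled DKO and 13.1 to 14.7% in those labelled WT. Dnajc19, the J-protein that stimulates Hspa9, had a log2 fold change of -0.075 (interval -0.29 to 0.14). Pam16, which restrains that J-protein, had 309, 283 and 352 TPM against 278, 259 and 266 TPM, without overlap. In CPM its groups overlapped (log2 fold change 0.081, interval -0.11 to 0.27), at an edgeR adjusted p of 0.556. With length and GC trends removed Pam16 was called higher, at 0.38 (edgeR adjusted p = 0.0327; 0.0327 to 0.999 over the 11 alternatives with every library). Its exons share 455 bases with Glis2 on the opposite strand. The summed TPM of the motor was 584 to 674 in libraries labelled DKO and 556 to 569 in those labelled WT. That sum did not overlap, and the median log2 fold change of the 6 members in CPM was 0.11. Its means were 632 TPM in libraries labelled DKO and 563 in those labelled WT. Of these Pam16 held 315 and 268 TPM and Hspa9 195 and 175. Pam16 has a transcript of 552 bases, so its TPM, and with it the sum, depends strongly on the fragment length used to scale it.

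After import, the processing peptidase cuts off the presequence. Pmpcb, its catalytic subunit, had 152, 147 and 154 CPM in libraries labelled DKO and 141, 126 and 137 CPM in those labelled WT, without overlap (log2 fold change 0.17; edgeR adjusted p = 0.12). Pmpca, the subunit that binds the presequence, had a log2 fold change of -0.021 (interval -0.17 to 0.13), but its exons share 874 bases with Inpp5e and its counts were fractional. In the disulfide relay that traps small proteins in the intermembrane space, Chchd4, the oxidoreductase, had 8.1, 7.18 and 8.56 CPM against 7.93, 8.39 and 8.18 CPM. The groups overlapped and the log2 fold change was -0.038 (interval -0.26 to 0.19). Gfer, which reoxidizes Chchd4, was at 54.2, 58.5 and 50.3 TPM in libraries labelled DKO and 64.1, 67.3 and 59.8 TPM in those labelled WT. In CPM its groups overlapped, and it did not pass the threshold (log2 fold change -0.19; edgeR adjusted p = 0.162).

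Transcript length was examined because fragment length differed between the labels. Across the 36 members, Spearman's rho between the log2 fold change and transcript length was 0.208, and across all 17110 tested genes it was 0.207. With an offset for the effective length of each library the values were -0.0525 and 0.0816. All 4 called members were among the 18 shorter than 1300 bases, whose median log2 fold change was -0.035, and the other 18 had a median of 0.034. The 4 members under 660 bases, Timm8b, Pam16, Tomm20l and Tomm5, were not called. Timm10, which was called, has 666 bases and lies just above that bound, so the count depends on where the bound was set. With the offset 6 members were called (16.7%; background 9.71%): Timm10, Timm10b, Timm13 and Tomm7, at log2 fold changes of -0.34, -0.67, -0.43 and -0.35, and higher Tomm20l and Tomm22, at 0.42 and 0.26 (edgeR adjusted p from 0.0276 to 0.049; background for higher genes 5.59%). The background for lower genes was 4.12%. The median of the members was then 0.029.

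**Figure D4:**
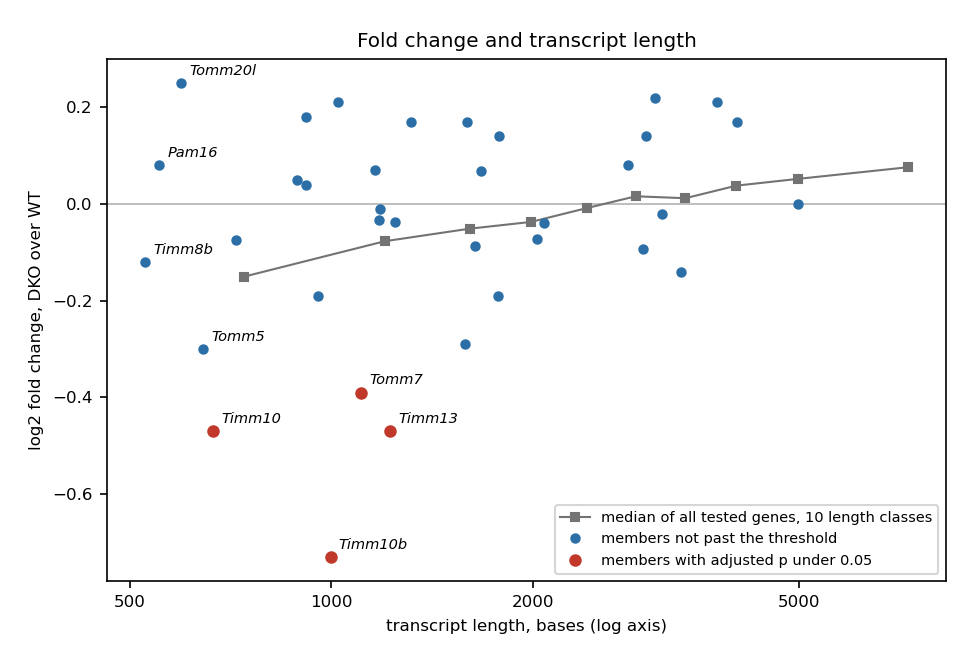
Log2 fold change (y axis, libraries labelled DKO over labelled WT) of the 36 members against transcript length in bases (x axis, log scale); squares join the medians of all tested genes in 10 classes of length. The class medians run from -0.15 to 0.076, and the 4 called members, in red, lie below that line.

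A further 4 lists of genes that work with the import machinery were also counted. Together 15 of 68 tested genes were called (22.1%, background 10.8%), 8 lower (background 5.1%) and 7 higher (background 5.75%). These calls also rest on single libraries: edgeR called 0 of 68 without DKO replicate 1, WT replicate 2 or WT replicate 3 (25, 25 and 28 at an unadjusted p under 0.05) and 4 without DKO replicate 2. It called 0 with fragment length as a covariate and 0 with length and GC trends removed (1 and 22 at an unadjusted p under 0.05). Calls fell over all tested genes too, to 11 without DKO replicate 1, 13 without WT replicate 2 and 7 without WT replicate 3. They were 655 without DKO replicate 2 (3.83%), 1 with the covariate and 586 with both trends removed (3.42%). Among 23 import partners 4 rose (background 5.75%) and 2 fell (background 5.1%), with a list median of -0.02. Those that fell were Romo1, a small subunit at the TIM23 channel, and Mtch1, an outer membrane protein related to the insertase Mtch2. Romo1 had 5.07, 10.2 and 7.09 CPM in libraries labelled DKO and 13.4, 17.7 and 13.3 CPM in those labelled WT, and fell (log2 fold change -1.0; edgeR adjusted p = 0.0265). Mtch1 had 14.7, 18.2 and 17.0 CPM against 22.9, 25.2 and 22.4 CPM (log2 fold change -0.50; edgeR adjusted p = 0.0253). With fragment length as a covariate Romo1 stood at -0.28 and Mtch1 at -0.22. Of the 4 that rose, none is a subunit of a translocase: Dnaja1, a cytosolic co-chaperone, at 0.35, Ranbp2, a nuclear pore protein, at 0.48 (-0.0072 with fragment length as a covariate), Ube3c, a ubiquitin ligase, at 0.27, and Armc1 at 0.39. Dnaja1 stood at 0.22 with that covariate.

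Among 16 genes of matrix folding and protein quality control 2 rose (background 5.75%) and 3 fell (background 5.1%), with a median of -0.035. Phb, the prohibitin that surrounds an inner membrane protease, had 57.6, 66.5 and 63.0 CPM in libraries labelled DKO and 88.0, 80.7 and 75.3 CPM in those labelled WT (log2 fold change -0.38; edgeR adjusted p = 0.0277). Clpp, the proteolytic subunit of a matrix protease, fell (log2 fold change -0.40; edgeR adjusted p = 0.0408), as did Lonp1, another matrix protease, at -0.41. Yme1l1, an inner membrane protease known to degrade Timm17a, had 205, 169 and 140 CPM in libraries labelled DKO and 133, 100 and 119 CPM in those labelled WT. Yme1l1 rose (log2 fold change 0.54; edgeR adjusted p = 0.0358), but stood at -0.12 with fragment length as a covariate. Clpx, the unfoldase partner of Clpp, rose at 0.32, so in the main fit the 2 subunits of this protease lay on opposite sides. Clpp was not called with the effective-length offset (-0.36; edgeR adjusted p = 0.0502). With fragment length as a covariate Clpp stood at -0.09 and Phb at -0.32.

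Of 8 tested MICOS genes, which shape the cristae, 1 rose (background 5.75%): Apoo, at 0.59 on the log2 scale (edgeR adjusted p = 0.0337). With fragment length as a covariate Apoo stood at 0.086. The last list held 21 twin-cysteine proteins of the intermembrane space, many of which are substrates of Chchd4 as the small TIM proteins are. Of these 3 fell (background 5.1%) and 0 rose (background 5.75%), and 17 had a log2 fold change below 0. The 3 that fell were Cox6b1, a cytochrome c oxidase subunit, at -0.45 (edgeR adjusted p = 0.0333), Cox17, a copper chaperone, at -0.36 (edgeR adjusted p = 0.04), and Cox6b2, a testis subunit, at -0.33. With fragment length as a covariate Cox6b1 stood at -0.1. The median of this list was -0.23, the median length of its transcripts 761 bases. Over all tested genes the median was -0.0042, and in their shortest length class (median length 741 bases) it was -0.15. The share of all genes below 0 was not counted. With the effective-length offset the list median was -0.055 and edgeR called 0 of the 21 (background 9.71%). At an unadjusted p under 0.05 that edgeR fit had 5. Cox17 then stood at -0.047 (edgeR adjusted p = 0.705). Over the 11 alternatives with every library its adjusted p ran from 0.00852 (DESeq2) to 0.999 (edgeR with the covariate). DESeq2 without the offset called 6 of the 21 (background 13.7%).

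**Figure D5:**
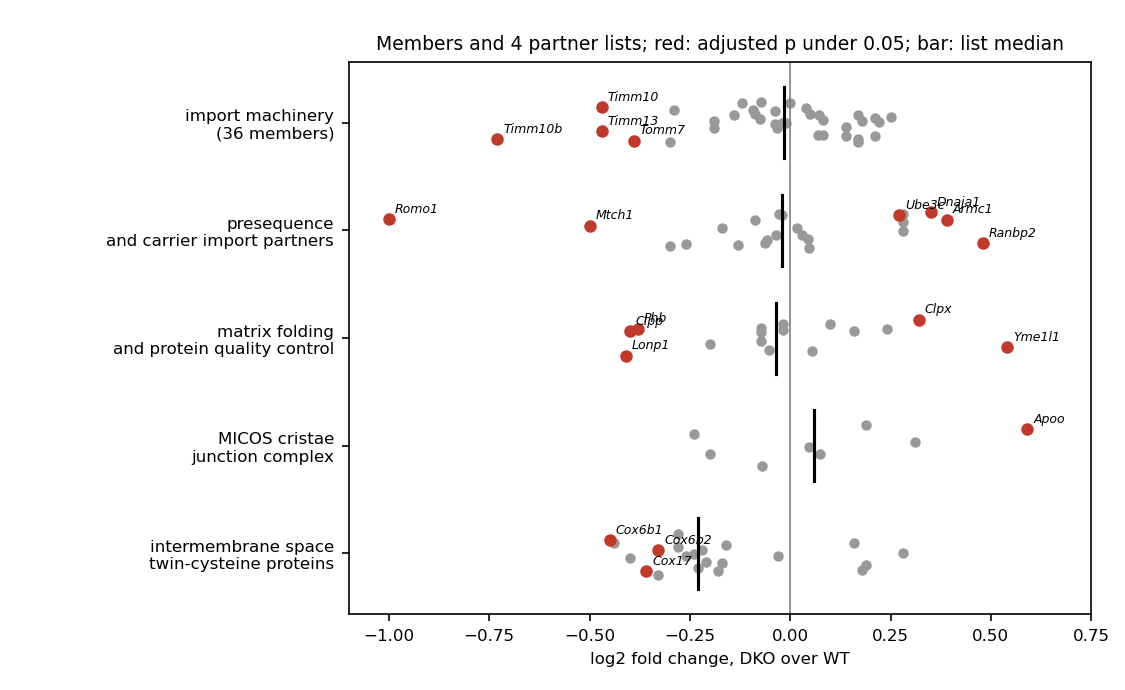
Log2 fold change (x axis, libraries labelled DKO over labelled WT) of the 36 members and of the genes of 4 partner lists; red points passed an adjusted p of 0.05 and bars are list medians. The medians of the members and of the import partners lie at -0.016 and -0.02, and that of the twin-cysteine proteins at -0.23.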

How the data were processed

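RNA of 6 testes was sequenced. Per the submitters' processing notes, STAR 2.7.0f, RSEM 1.2.31 and DESeq2 1.12.3 were used with mm10; strand handling is not given in the sources used here. The authors deposited expected counts per gene, estimates of which 93.2% were whole within 0.001. TPM, also deposited, divide these by effective length and scale each library to 1 total. The other numbers deposited by the authors and used here are lengths in bases.

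Expected counts were rounded, filtered by filterByExpr, scaled by TMM and compared by the quasi-likelihood test of edgeR 4.0.16 on genotype label over 17110 genes, called at an adjusted p under 0.05. SE is the absolute log2 fold change over the square root of F. CPM are TMM-normalized. The fits were tested on simulated data. Mean fragment length was taken from the gap between the deposited length and effective length of long genes (over 3000 bases). Alternatives used DESeq2 1.42.0, limma 3.58.1 and mgcv 1.9.3; 1 of them, removing the trend of each library on length and GC content, was chosen after seeing the data. Positions and promoters come from RefSeq on GRCm38.p6, exon overlaps from GENCODE M21, without pseudogenes. Groups are the labelled genotypes; FPKM were not used. Motifs NRF1, YY1 and SP were searched as 1 fixed string each.

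The members and lists were chosen with earlier results of these data known. Values per library were given for called members (all if 20 or fewer), paralog pairs and a central subunit per complex, and for at most 10 called partner genes; Tomm22, Tomm5, Tomm70a, Timm9, Timm8b, Pam16 and Gfer were added after their values were seen, as were the partner genes named without values.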

Additional observations from a re-analysis of the deposited data

How the results depend on the processing

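No paired analysis was possible because the labels give the groups no shared replicate numbers; the numbers 1 to 3 used here follow accession order and only name the libraries. Depth limits the low members most: Timm8a1 had 88 to 201 counts per library. Among 11 alternatives that kept all libraries, Timm10b, Timm13 and Tomm7 passed the threshold in 10 and Timm10 in 9. Counts of called members were 4 to 6 in all of these but the fit with fragment length as a covariate. In that fit 0 members, 0 partner genes and 1 gene in all were called by edgeR (2, 1 and 545 at an unadjusted p under 0.05), and the median of the members was 0.02. The median was 0.029 both with the effective-length offset and with the length trend removed. DESeq2 called 2895 genes of 21125, without the low-count filter used for edgeR but with its own default filter. With length and GC trends removed 586 genes and 0 partner genes were called by edgeR (22 partner genes at an unadjusted p under 0.05), and on both TPM scales limma called 7 partner genes. Leaving out 1 library each gave 0 to 6 members, 0 to 18 partner genes, 7 to 3029 genes and member medians from -0.031 to 0.0016. Without DKO replicate 1, WT replicate 2 or WT replicate 3 there were 0 members and 0 partner genes called by edgeR. In all, edgeR called 11, 13 and 7 genes in these fits. At an unadjusted p under 0.05 they had 8, 6 and 8 members. Without DKO replicate 3 Tomm6 and Tomm70a were called beside Timm10, Timm10b, Timm13 and Tomm7. Of 680 values of single genes under an alternative, 534 kept direction and call, 89 lost the call, 14 gained it and 43 changed sign. The 534 include genes not called in the main fit that stayed uncalled. A sign change was counted first, so Ranbp2, Yme1l1 and Cox17, which also lost the call with the covariate, are among the 43. The cause was not tested.

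Tomm20 changed sign to -0.0032 with DESeq2 size factors, -0.0083 at a mean count of at least 50, -0.024 with the effective-length offset, -0.052 with the length trend removed, -0.0013 with DESeq2, -0.067 and -0.069 on the TPM scales, -0.033 after thinning, -0.09 with the covariate, -0.16 with length and GC trends removed, and -0.036 to 0.019 when 1 library was left out. Timm8b changed to 0.10 with the effective-length offset, 0.049 with the length trend removed, 0.047 with length and GC trends removed, 0.054 on both TPM scales and 0.064 with the covariate. Timm8a1 changed to 0.028 with the effective-length offset and 0.036 with the length trend removed, Chchd4 to 0.0064 with the length trend removed, Timm9 to -0.0041 after thinning and Tomm70a to -0.06 with length and GC trends removed. With the covariate, signs changed for Chchd4 (0.033), Grpel1 (0.15), Timm17b (0.042), Timm44 (-0.016), Timm9 (-0.19), Tomm40l (0.17), Tomm70a (-0.13), Cox17 (0.0062), Ranbp2 (-0.0072) and Yme1l1 (-0.12). Leaving out 1 library gave -0.071 to 0.027 for Timm8a1, -0.048 to 0.11 for Timm8a2, -0.10 to 0.019 for Chchd4, -0.015 to 0.12 for Pam16, -0.044 to 0.0027 for Pmpca and -0.049 to 0.13 for Timm9.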

Other observations

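The abundance-weighted transcript length of a gene, a readout that the counts do not use, moved by at least 1 base between libraries for 7 members with several annotated transcripts: Dnajc19, Timm22, Timm9, Tomm34, Tomm40, Tomm5 and Tomm6. For 6 of them the groups overlapped. Dnajc19, the J-protein of the import motor, had 706.4 to 737.6 bases in libraries labelled DKO and 709.0 to 729.7 in those labelled WT (exact permutation test, two-sided, p = 0.8). Tomm40 had 1574.9 to 1584.9 against 1579.5 to 1589.4 bases (exact permutation p = 0.5). Tomm6 was the exception without overlap, but its means differed by 0.8 bases (exact permutation p = 0.1, the smallest that 3 against 3 libraries allow; adjusted over the 7 genes 0.7). A p of 0.1 is above the threshold of 0.05, so 3 libraries a group allow no call here and these values are a description only.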
